A study of Mus musculus with 6 samples.

Results

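Interferon-stimulated genes were measured in cells from the lungs of wild-type C57BL/6 mice, 3 days after saline or the complement protein C1q had been instilled into the trachea. The set was a fixed list of 43 genes known to be induced by interferons. A gene was kept when its counts summed to at least 20 over the 6 libraries, which left 42 of 43 listed genes among 26890 genes in the table, and Cxcl9, with 15 counts, was the gene left out. Of the 42 kept, 39 were abundant enough to be tested among 13473 genes, and Oas2, Oas3 and Mx1 were not.

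Both groups were WT mice of the C57BL/6 strain, with no other allele named in the labels. The C1q group (n = 3 libraries) received 20 µg of C1q per mouse and the control group (n = 3 libraries) received Saline, and lungs of both were taken at day 3. The treatment text of every library describes the C1q dose alone, so the control group rests on its treatment label. Neither the species of the C1q nor the age of the mice was given in the sources used here. Saline was the only control, so a response to C1q cannot be told apart from a response to any instilled protein. The labels do not say that each library came from a separate animal, so p-values measure the spread between these libraries.

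Interferons are secreted signals that alert cells to infection. Type I interferons bind a receptor of the chains IFNAR1 and IFNAR2, whose kinases JAK1 and TYK2 activate transcription factors such as STAT2. STAT2 and IRF9 are parts of the complex ISGF3, which binds a promoter element called ISRE and switches on many antiviral genes. Interferon gamma acts through IFNGR1 and IFNGR2 and on another promoter element, GAS. In the lung both programmes operate in epithelium, endothelium, macrophages and lymphocytes.

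The promoter elements are shown first because they are what these genes are known to share. RefSeq promoters on GRCm38.p6, from 250 bases before to 50 bases after each start, were matched by symbol for 33 of the 42 genes kept. Dhx58, Zbp1, Oas2, Mx1, Mx2, Rtp4, Usp18, Parp9 and Parp14 had no entry. The ISRE core was searched as GAAANNGAAA on both strands, and GAS as TTCNNNGAA, a pattern that is its own reverse complement. The 2 patterns can overlap each other. An ISRE core was found in 18 of 33 promoters (54.5%), against 3.99% of 27025 genes in the promoter table. GAS letters were found in 8 of 33 (24.2%), against 9.55% of all genes in that table.

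The stretches below carry the ISRE cores of 8 of the 18 members, 5′ to 3′ along the gene's strand. Capitals mark each core or run of overlapping cores. A core that begins with TTTC is the same pattern read on the opposite strand. Every stretch lies upstream of the RefSeq start. No core was found in the window for Trim25, Irf7, Oasl1, Xaf1 or Ifi44, and Mx2 and Usp18 had no entry.
Isg15 (chr4:156200855-156200916, minus strand): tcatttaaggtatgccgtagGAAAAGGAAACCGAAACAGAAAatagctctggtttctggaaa
Ifit1 (chr19:34640765-34640833, plus strand): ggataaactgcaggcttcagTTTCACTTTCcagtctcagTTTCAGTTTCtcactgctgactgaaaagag
Ifit3 (chr19:34583353-34583436, plus strand): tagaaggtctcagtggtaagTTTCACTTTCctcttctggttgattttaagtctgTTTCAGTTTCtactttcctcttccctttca
Ifit3b (chr19:34607749-34607832, plus strand): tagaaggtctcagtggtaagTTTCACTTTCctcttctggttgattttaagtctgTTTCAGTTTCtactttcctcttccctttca
Stat2 (chr10:128270256-128270305, plus strand): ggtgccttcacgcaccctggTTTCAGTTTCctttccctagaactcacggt
Bst2 (chr8:71537567-71537622, minus strand): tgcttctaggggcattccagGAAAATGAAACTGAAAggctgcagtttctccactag
Gbp7 (chr3:142530263-142530312, plus strand): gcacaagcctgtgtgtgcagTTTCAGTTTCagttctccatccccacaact
Cxcl10 (chr5:92349073-92349122, minus strand): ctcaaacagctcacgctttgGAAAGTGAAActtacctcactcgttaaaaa

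Isg15 held 3 overlapping cores, 57 to 78 bases before its start. The stretches of Ifit3 and Ifit3b are the same letters, and their 300-base promoter windows shared a run of 169 identical bases. Reads from these neighbouring copies could be split between them in a way the counts do not show. Their transcripts were not compared, and most of the promoter window lies before the start. The Cxcl10 core lay farthest out of those printed apart from Stat2, at 204 to 213 bases before the start.

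Total counts were 2577429 to 2991562 in the saline and 2227619 to 3650793 in the C1q libraries. Levels are given as CPM, the counts per 1000000 counts of the tested genes in a library after scaling by TMM. At these depths 3 counts, the limit that a count of 0 allows, equal 0.830 to 1.35 CPM. Lung markers were abundant in every library. The 7 alveolar type 2 markers summed to 23685 to 44988 CPM, the 6 alveolar type 1 markers to 2286 to 2760 CPM, and the 8 endothelial markers to 2765 to 3747 CPM. Because mixed cells recovered after a Percoll gradient were lysed, fewer cells of a type and less RNA per cell cannot be told apart in any value given here.

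No interferon-stimulated gene passed the test for a difference between C1q and saline, and the members lay on both sides of 0. Of the 39 members tested, 0 were called higher and 0 lower by edgeR's quasi-likelihood test at an adjusted p under 0.05. Over all genes 4 were called higher (0.0297%) and 0 lower (0%). At an unadjusted p under 0.05 there was 1 member higher, where the share over all genes was 4.22%, and 2 lower, where it was 3.94%. DESeq2 and limma-voom also called 0 members, while edgeR with no filter on low counts called 1, the chemokine gene Cxcl10. That setting called 373 of 26890 genes in all.

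The median log2 fold change of the 39 was -0.03, where the median over all genes was -0.01. A positive log2 fold change was seen in 17 of 39 (43.6%), against 48.2% of all genes tested. The smallest adjusted p was 0.512. Scaling by library size only gave 13 of 39 (33.3%), against 42.2% of all genes under that scaling, and leaving out a saline library moved the split further, as given below.

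The precision was enough to bound most members. For 34 of 39 the 95% interval of the log2 fold change, taken gene by gene, lay wholly between a fall and a rise of 2-fold, against 72.6% of all genes. Oasl1, Mx2, Cxcl10, Ifi44 and Xaf1 were the members with a wider reach. The plot of intervals shows both the narrow centre and these exceptions.

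**Figure D1:**
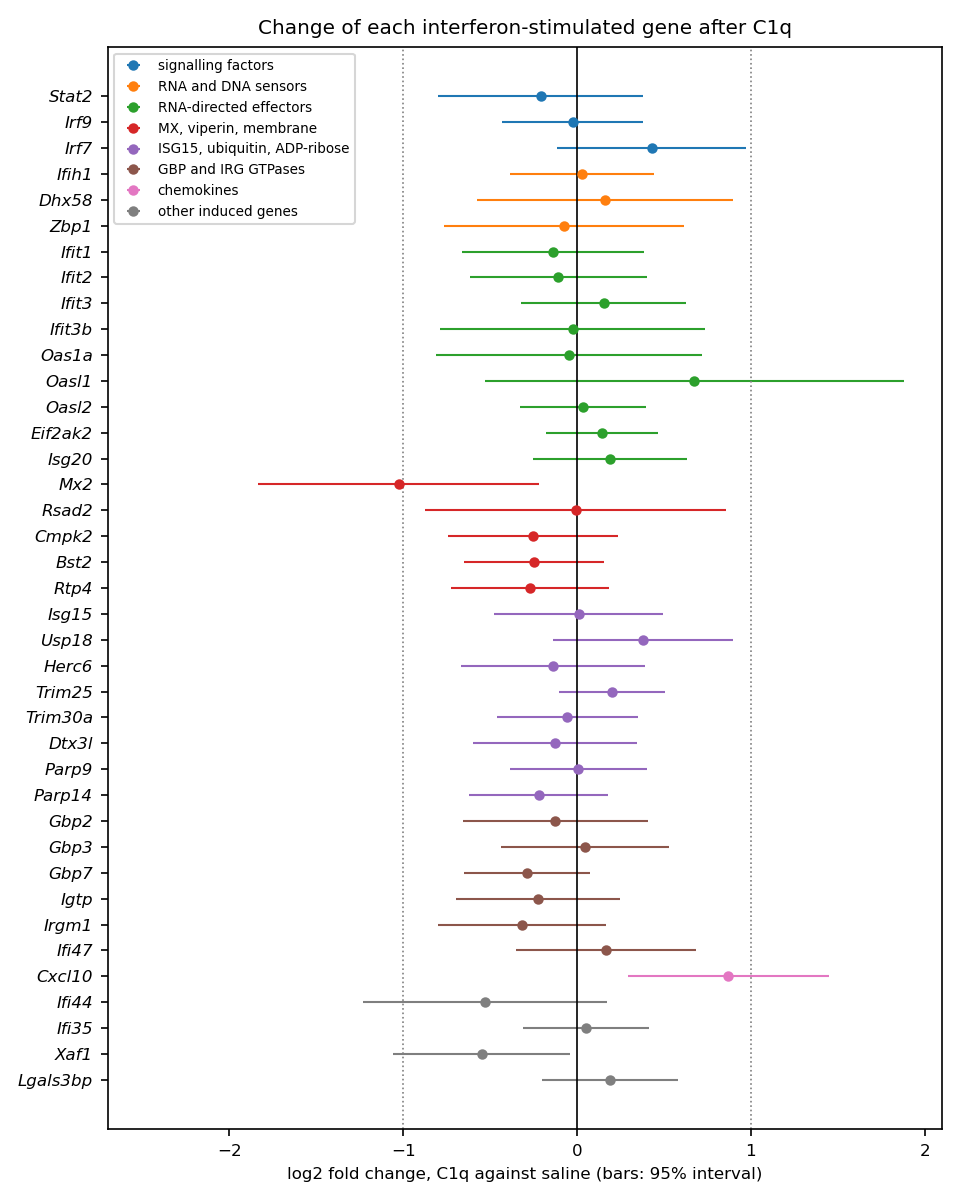
Log2 fold change of C1q against saline for each of the 39 tested interferon-stimulated genes (x axis, log2 units), grouped by role in colour, with bars for the 95% interval and dotted lines at a 2-fold change in either direction. Points lie close to 0, from -1.02 for Mx2 to 0.87 for Cxcl10, and 34 intervals stay inside the dotted lines.

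The summed level of the 42 genes kept was 2028, 1571 and 1618 CPM in saline replicates 1 to 3 and 1730, 1734 and 1704 CPM in C1q replicates 1 to 3. The C1q libraries thus lay close to each other, inside the saline range. The saline group spread around them, with replicate 1 high and replicates 2 and 3 low.

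The signalling factors were at similar levels in both groups. Stat2, the STAT particular to type I and III interferon signalling, stood at 27.3, 22.3 and 40.0 CPM in saline and 18.3, 28.2 and 32.05 CPM in C1q. The groups overlapped, with the extremes in saline replicate 3 and C1q replicate 1, and the log2 fold change was -0.21 ± 0.27 (SE). Irf9, the DNA-binding partner in ISGF3, had a log2 fold change of -0.03 ± 0.18 (0.095 without saline replicate 1), and it overlaps Rnf31 on the same strand.

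Irf7, which amplifies the production of interferon alpha, was the signalling gene with the largest positive difference. It stood at 30.9, 17.4 and 18.7 CPM in saline and 36.2, 27.9 and 26.2 CPM in C1q. Saline replicate 1 lay among the C1q libraries, and the log2 fold change was 0.43 ± 0.25 with a 95% interval of -0.12 to 0.98 (adjusted p = 0.647). Irf7 overlaps Phrf1 on the other strand, and the sources used here do not say how the counts treat strand.

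The sensors of foreign nucleic acid were close to level. Ifih1, which encodes the double-stranded RNA sensor MDA5, stood at 44.4, 28.3 and 39.6 CPM in saline and 39.3, 37.4 and 38.4 CPM in C1q. The C1q libraries were nearly identical and fell inside the saline range, for a log2 fold change of 0.03 ± 0.19. Dhx58, which encodes the related helicase LGP2, was at 0.16 ± 0.33, and Zbp1, a sensor of Z-form nucleic acid, at -0.07 ± 0.31.

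The genes whose products act on viral RNA had 5 of 9 tested members positive and a median log2 fold change of 0.04. Ifit1, which binds RNA lacking the host cap modification, stood at 29.6, 18.2 and 19.0 CPM in saline and 19.6, 23.3 and 18.1 CPM in C1q. Saline replicate 1 alone exceeded every other library, and the log2 fold change of -0.14 ± 0.24 became 0.13 without it. The related Ifit2 was at -0.11 ± 0.23, Ifit3 at 0.16 ± 0.22 and Ifit3b at -0.02 ± 0.34, the last becoming 0.55 without saline replicate 1.

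Eif2ak2, which encodes the kinase PKR that halts translation, had 2707 counts in all. It stood at 156, 140 and 159 CPM in saline and 172, 150 and 181 CPM in C1q. The groups overlapped at C1q replicate 2, and the log2 fold change was 0.14 ± 0.15 with a 95% interval of -0.18 to 0.47 (adjusted p = 0.793).

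Among the oligoadenylate synthetase genes, whose products start RNA breakdown through RNase L, Oas1a had a log2 fold change of -0.05 ± 0.35 (0.36 without saline replicate 1). The oligoadenylate synthetase-like gene Oasl2 was at 0.04 ± 0.16. Its relative Oasl1, a repressor of Irf7 translation, stood at 4.50, 1.21 and 1.87 CPM in saline and 4.42, 5.64 and 2.26 CPM in C1q. The groups overlapped and rested on 59 counts, so the log2 fold change of 0.68 ± 0.54 has a 95% interval of -0.53 to 1.88. It was 1.41 without saline replicate 1 and 0.37 without saline replicate 2. Oas2 and Oas3 were too low to test, at 1.29 to 3.36 and 0.810 to 3.36 CPM in saline and 1.41 to 4.70 and 0.705 to 3.60 CPM in C1q. Isg20, an RNA exonuclease, was at a log2 fold change of 0.19 ± 0.20.

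The MX, viperin and membrane effectors leaned the other way, with 5 of 5 tested members negative and a median log2 fold change of -0.25. None passed the test. Over all genes 48.2% were positive, and most of the lean outside Mx2 depended on saline replicate 1, as given below. Mx2, a dynamin-like GTPase gene that GENCODE M21 lists as a polymorphic pseudogene, stood at 9.32, 6.48 and 8.22 CPM in saline and 3.32, 5.29 and 3.16 CPM in C1q. All 3 C1q libraries were below all 3 saline libraries, on 101 counts in all, for a log2 fold change of -1.02 ± 0.37 with a 95% interval of -1.83 to -0.22 (adjusted p = 0.566). Its paralogue Mx1, which is known to carry a deletion in C57BL/6 mice, was too low to test and showed no such order, at 2.89, 1.21 and 2.61 CPM in saline and 3.32, 2.82 and 3.16 CPM in C1q.

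Bst2, which encodes the virion tether tetherin, had the most counts of any member, 4404 in all. It stood at 336, 297 and 212 CPM in saline and 230, 255 and 226 CPM in C1q. Saline replicates 1 and 2 were above every C1q library and saline replicate 3 below them all, so the groups overlapped and the log2 fold change was -0.25 ± 0.18 (adjusted p = 0.713). The others were Rsad2, which encodes viperin, at -0.01 ± 0.39 (0.33 without saline replicate 1), its neighbour Cmpk2 at -0.25 ± 0.22 and Rtp4 at -0.27 ± 0.21. Saline replicate 1 was the highest library for each of these 5 genes, and C1q replicate 3 the lowest for 4 of them. Without saline replicate 1 the log2 fold change was -0.90 for Mx2, -0.10 for Bst2, -0.02 for Cmpk2 and -0.14 for Rtp4.

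Genes of the ISG15 conjugation system and of related ubiquitin and ADP-ribose enzymes were evenly divided, with 4 of 8 positive. Isg15, which encodes a ubiquitin-like modifier, stood at 32.8, 23.9 and 20.2 CPM in saline and 23.0, 29.6 and 25.3 CPM in C1q. The C1q libraries fell inside the saline range, and the log2 fold change was 0.01 ± 0.22 with a 95% interval of -0.48 to 0.50. Usp18, which removes ISG15 and also dampens the type I receptor, stood at 23.5, 15.4 and 23.9 CPM in saline and 31.0, 29.6 and 20.8 CPM in C1q. With C1q replicate 3 inside the saline range, its log2 fold change of 0.38 ± 0.23 did not pass (adjusted p = 0.667).

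Trim25, the ubiquitin ligase known for activating RIG-I, was measured with 2190 counts. It stood at 120, 113 and 126 CPM in saline and 145, 129 and 140 CPM in C1q. All 3 C1q libraries were above all 3 saline libraries, by a small margin, for a log2 fold change of 0.20 ± 0.14 with a 95% interval of -0.10 to 0.51 (adjusted p = 0.692). The remaining members of the group were Herc6, the mouse ligase for ISG15, at -0.14 ± 0.24, Trim30a at -0.06 ± 0.18, Dtx3l at -0.13 ± 0.21, Parp9 at 0.01 ± 0.18 and Parp14 at -0.22 ± 0.18. Dtx3l and Parp9 overlap on opposite strands, and Parp9 also overlaps Gm15564, so their reads cannot be told apart with certainty.

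The guanylate-binding proteins and immunity-related GTPases, which attack the vacuoles of intracellular pathogens and respond mainly to interferon gamma, had 4 of 6 members negative and a median log2 fold change of -0.18. Gbp2 stood at 93.2, 53.4 and 45.9 CPM in saline and 55.0, 64.5 and 57.8 CPM in C1q. A single high library, saline replicate 1, set the sign: the log2 fold change was -0.13 ± 0.24 with it and 0.25 without it. Gbp7 stood at 76.8, 60.3 and 60.5 CPM in saline and 48.1, 54.3 and 60.5 CPM in C1q. The groups met at C1q replicate 3, and the log2 fold change was -0.29 ± 0.16 with a 95% interval of -0.65 to 0.08 (adjusted p = 0.647).

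Irgm1, a regulator of the other immunity-related GTPases, stood at 75.9, 54.2 and 67.6 CPM in saline and 39.8, 70.5 and 49.2 CPM in C1q. The groups overlapped widely, with a log2 fold change of -0.32 ± 0.22 (adjusted p = 0.693). Gbp3 was at 0.05 ± 0.22, Igtp at -0.23 ± 0.21 (0.03 without saline replicate 1) and Ifi47 at 0.17 ± 0.23 (-0.06 without C1q replicate 2). Igtp overlaps Irgm2 on the same strand.

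Of the chemokine genes, Cxcl10 had the largest positive log2 fold change of all 39 members. It encodes a ligand of CXCR3 that attracts activated T cells, and it responds to NF-kB signals as well as to interferons. It stood at 44.0, 21.1 and 41.5 CPM in saline and 67.2, 50.4 and 79.0 CPM in C1q. All 3 C1q libraries were above all 3 saline libraries, a 1.83-fold difference in the fit. The log2 fold change was 0.87 ± 0.26 with a 95% interval of 0.29 to 1.45, and it did not pass by edgeR's quasi-likelihood test (adjusted p = 0.512). With no filter on low counts the adjusted p by the same test was 0.00109. In that setting 373 of 26890 genes passed, against 4 of 13473 in the main fit. Over the other alternatives the adjusted p of Cxcl10 ran from 0.183 to 0.854.

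Cxcl10 lies on chromosome 5 from 92346638 to 92348889 and overlaps Art3 on the opposite strand, which had 225 counts against 861 for Cxcl10. Marker sums of some cell types were also higher in the C1q group. The 6 interstitial macrophage markers summed to 72.8 to 107 CPM in saline and 135 to 171 CPM in C1q. The 7 fibroblast markers summed to 1076 to 1276 and 1592 to 1630 CPM, with 0 markers of either list at 0 in any library. The C1q libraries were above the saline range for 4 of 5 tested interstitial macrophage markers and 5 of 7 fibroblast markers. Over all genes that share was 8.12%. The same held for 2 of 6 alveolar macrophage markers and 0 of 5 classical monocyte markers. Most of the interstitial macrophage difference lay in C1qa, C1qb and C1qc, which encode the chains of C1q itself. C1qa stood at 16.8 to 28.0 CPM in saline and 42.0 to 52.3 CPM in C1q. Cx3cr1 went the other way, at 11.2 to 14.8 CPM in saline and 7.19 to 10.4 CPM in C1q. Their part in the Cxcl10 difference was not tested. The related chemokine gene Cxcl9 did not share the pattern at its low level, with single-library values of 0.321 to 2.24 CPM in saline and 0.353 to 1.11 CPM in C1q.

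The last group held members of varied function, with 2 of 4 positive. Ifi44, a cytoplasmic protein gene used as a marker of interferon activity, stood at 16.1, 9.31 and 8.59 CPM in saline and 8.57, 7.76 and 7.22 CPM in C1q. The groups did not overlap, yet saline replicate 3 and C1q replicate 1 almost met, and the log2 fold change of -0.53 ± 0.32 was -0.18 without saline replicate 1. Xaf1, which encodes an antagonist of the apoptosis inhibitor XIAP, stood at 28.0, 23.9 and 19.8 CPM in saline and 19.6, 16.2 and 12.6 CPM in C1q. It too had every C1q library below every saline library by a narrow gap, at -0.55 ± 0.23 with a 95% interval of -1.06 to -0.04 (adjusted p = 0.602). Ifi35 was at 0.05 ± 0.16 and Lgals3bp, a secreted glycoprotein gene, at 0.19 ± 0.18.

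**Figure D2:**
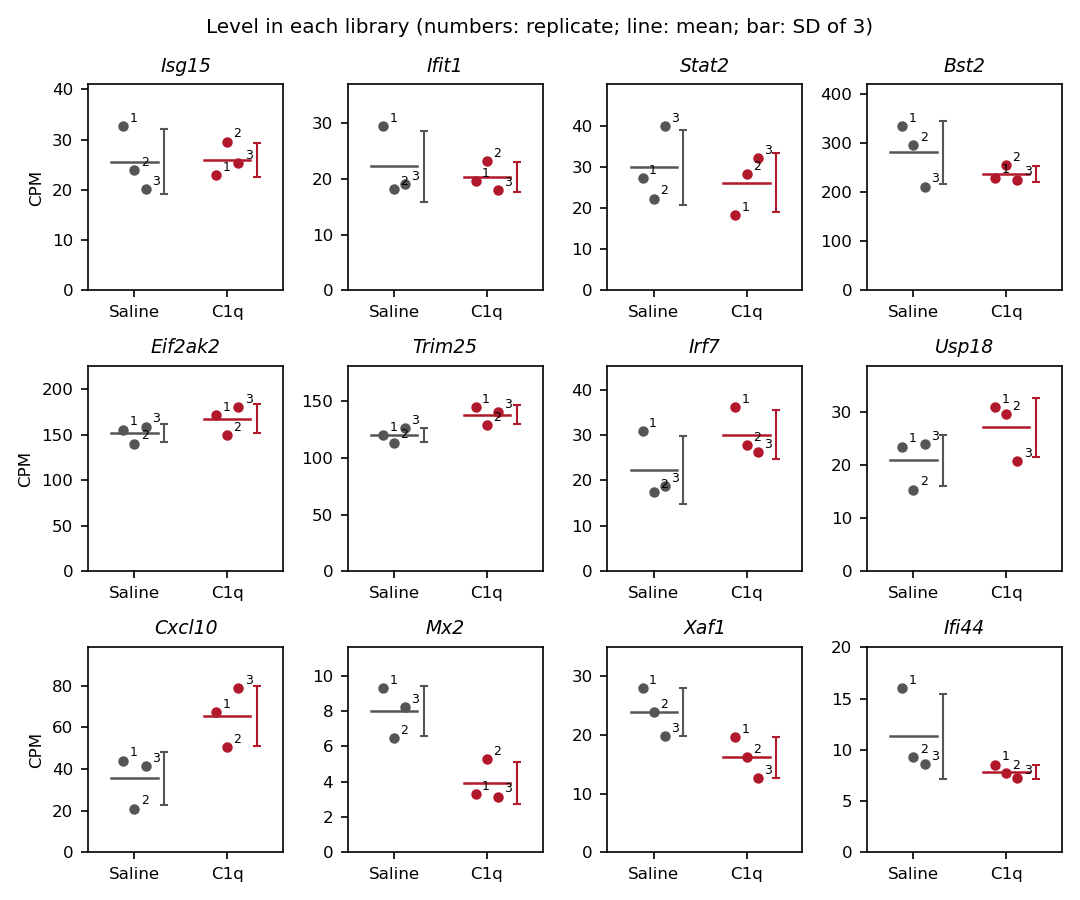
Level of 12 interferon-stimulated genes in each library (y axis, CPM, starting at 0), with saline in grey, C1q in red, the replicate number beside each point, lines for the mean and bars for the SD of 3 libraries. Isg15, Ifit1 and Stat2 overlap between groups, while Cxcl10 and Trim25 lie wholly above and Mx2, Xaf1 and Ifi44 wholly below the saline libraries.

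Counted over the set, C1q values exceeded every saline value for 2 members, Cxcl10 and Trim25 (5.13% of 39), where the share over all genes was 8.12%. They lay below it for 3 members, Mx2, Xaf1 and Ifi44 (7.69%), where the share over all genes was 5.96%. Both counts are within a few genes of the share over all genes, and nothing is read from them about the set.

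The larger pattern among these genes was between saline libraries. Saline replicate 1 had the highest level of all 6 libraries for 23 of 39 members (59.0%), while it was highest for 10.0% of all genes tested. Saline replicate 2 was highest for 0 of 39 and lowest for 16 (41.0%), against 19.0% lowest over all genes. Saline replicate 3 was lowest for 11 more (28.2%, against 23.6%).

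The median deviation of the members from their own means, on the log2(CPM + 1) scale, was 0.35 in saline replicate 1, -0.18 in saline replicate 2 and -0.09 in saline replicate 3. In the C1q libraries it lay between -0.05 and 0.02. The same figure over all genes lay between -0.01 and 0.01 in every library. Within groups the median SD of the members was 0.33 in saline and 0.19 in C1q, where all genes had 0.25 and 0.22.

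**Figure D3:**
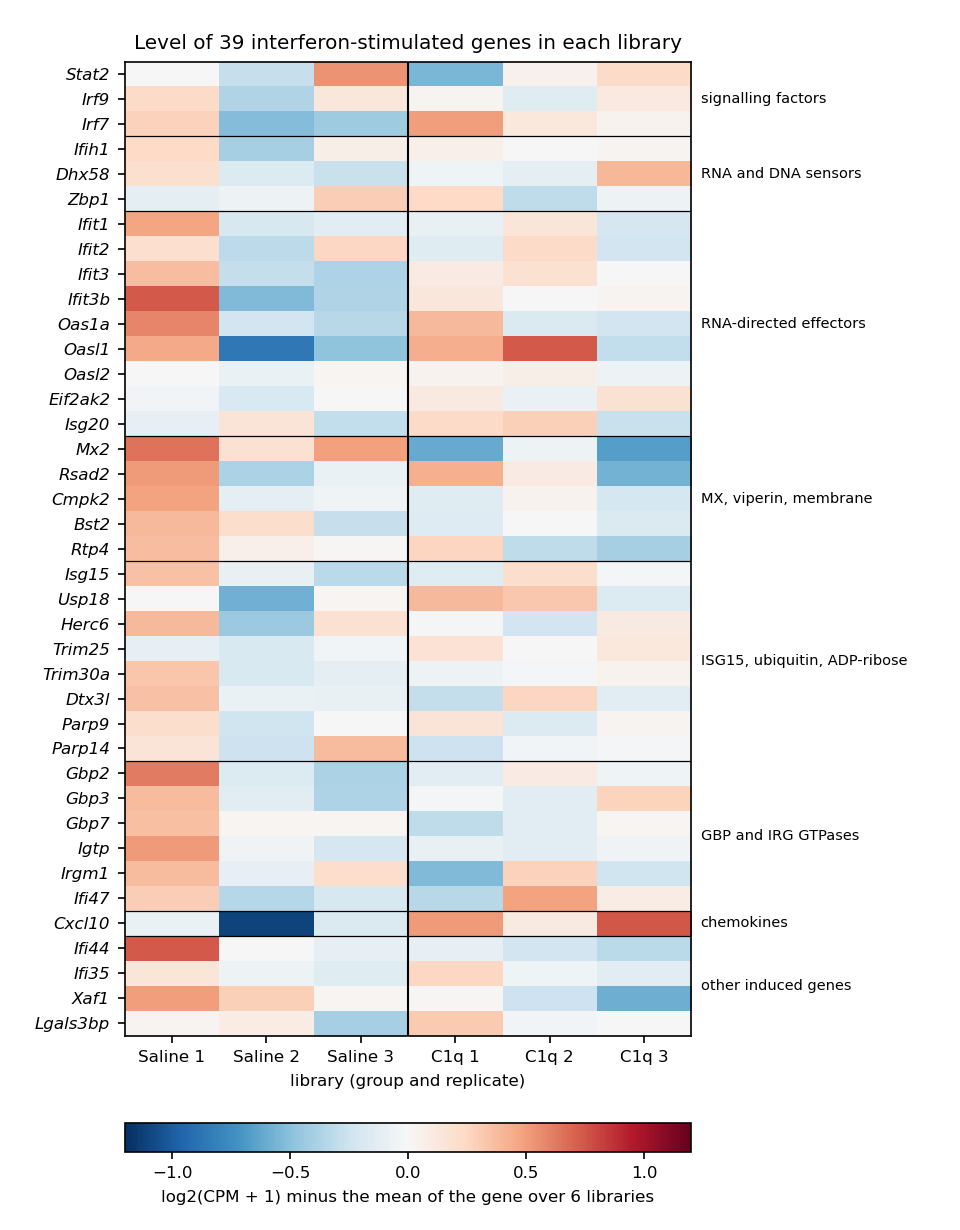
Level of the 39 tested interferon-stimulated genes (rows, ordered by role) in the 6 libraries (columns), as log2(CPM + 1) minus the mean of the gene, with red above and blue below that mean. Saline replicate 1 is above the mean for 34 of 39 genes and saline replicate 2 for 8 of 39, while the C1q columns are mostly pale.

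By role, saline replicate 1 was the highest library for 5 of 5 MX, viperin and membrane effectors, for 5 of 6 GTPases, for 5 of 8 ISG15 and ubiquitin genes and for 4 of 9 RNA-directed effectors. Among the smaller groups it was highest for 1 of 3 signalling factors, 1 of 3 sensors, 2 of 4 of the varied genes and not for Cxcl10. By promoter, it was highest for 14 of the 17 tested members whose promoter held an ISRE core, and for 6 of the 15 whose promoter did not. Cxcl10, which has a core, was not among the 14. For C1q against saline, the median log2 fold changes of these sets were -0.05 and 0.04.

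**Figure D4:**
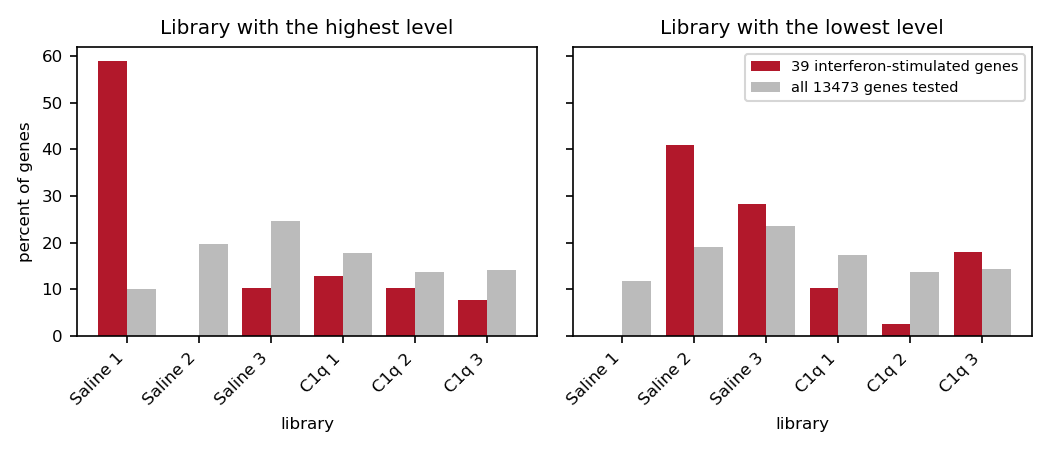
Percent of genes (y axis, from 0) whose highest level (left) or lowest level (right) fell in each library, for the 39 interferon-stimulated genes in red and all 13473 tested genes in grey. Saline replicate 1 holds the highest level for 59.0% of the interferon-stimulated genes and 10.0% of all genes.

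The comparison of treatments leaned on that library. Without saline replicate 1 the median log2 fold change of the members was 0.14, with 27 of 39 positive (69.2%, against 47.7% of all genes). Above the remaining saline range were 11 of 39 (28.2%, against 12.3% of all genes in that smaller comparison). That library was singled out as highest for most members, so the higher median and the larger shares positive and above follow from the choice. The pooled SD between replicates of the members' median deviation was 0.20. Without saline replicate 2 the median log2 fold change was -0.15, with 14 of 41 positive (34.1%, against 50.2% of all genes). That library was lowest for 16 of 39 members, so the lower median and share positive follow from leaving it out. In both fits 0 members were called. Leaving out 1 library at a time turned the sign of the log2 fold change for 19 of 39 members in at least 1 fit, and for 10 of them without saline replicate 1.

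Markers of several blood cells were also high in saline replicate 1. None of the T, B or natural killer cell markers was at 0 in any library. The 6 T cell markers summed to 54.3 CPM there and to 29.3 to 40.9 CPM in the other libraries. The 6 B cell markers summed to 312 CPM and the 7 natural killer cell markers to 132 CPM, with C1q replicate 1 close behind at 305 and 130 CPM and the other libraries at 187 to 243 and 56.4 to 88.7 CPM. Gzma made 82.0 of the 132 CPM.

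Red cell genes (5 listed, 1 of them at 0 in some library) summed to 273 CPM in saline replicate 1 and to 37.9 to 191 CPM elsewhere. Plasmacytoid dendritic cell markers, 5 genes of the cells best known for interferon alpha, summed to 14.8 CPM in saline replicate 1 and to 12.2 to 32.8 CPM elsewhere, and Cox6a2 alone made 24.7 of the 32.8 CPM, in saline replicate 2. Neutrophil markers (6 listed, of which Ly6g was at 0 in 5 of 6 libraries) were lowest in saline replicate 1 (51.1 CPM, against 60.5 to 105 CPM). The part of these cells in the high levels of saline replicate 1 was not tested.

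The rest of the pathway was examined from lists of its ligands, receptors, kinases, sensors and inhibitors, and 0 genes of these lists were called in either direction. Of 21 interferon genes listed, 3 had a row, and Ifnb1 and the other 17 were not analysed here. Ifng, which encodes interferon gamma, had 26 counts in all, at 2.57, 1.21 and 0.747 CPM in saline and 0.830, 2.82 and 0.903 CPM in C1q. Ifnab and Ifnz had 4 and 3 counts. A difference in these ligand transcripts was not detectable at this depth.

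The receptor genes were well measured. Ifnar1 had a log2 fold change of -0.20 ± 0.16, Ifnar2 of -0.02 ± 0.14, Ifngr1 of 0.07 ± 0.16 (-0.05 without saline replicate 3) and Ifngr2 of -0.15 ± 0.17. Among 6 receptor chains the smallest p belonged to Il10rb, a chain shared by interferon lambda and interleukin receptors, at -0.33 ± 0.16 (adjusted p = 0.607). Its C1q libraries, at 54.7 to 60.0 CPM, were below all saline libraries, at 62.0 to 84.2 CPM. This held for 1 of the 6 chains, where the share over all genes was 5.96%.

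Other factors of the pathway had a few separated groups and 0 calls. The C1q libraries were above the saline range for 1 of 6 tested IRF genes, 1 of 12 sensors and adaptors and 1 of 6 inhibitors. They were below it for 0 genes of these 3 lists. The shares over all genes were 8.12% above and 5.96% below, and nothing is read from these counts. Irf1, an early factor of the interferon gamma response, was at a log2 fold change of 0.20 ± 0.18 (0.0020 without C1q replicate 2). Irf5, a factor of macrophages and B cells, stood at 24.8, 25.5 and 26.1 CPM in saline and 41.2, 34.2 and 45.6 CPM in C1q. The groups were apart, and the log2 fold change of 0.66 ± 0.17 had the smallest p of 6 IRF genes (adjusted p = 0.410). Sting1, the adaptor of DNA sensing, was at 0.64 ± 0.24 (adjusted p = 0.598), with saline at 8.91 to 10.9 CPM and C1q at 14.4 to 18.1 CPM. Ptpn2, a phosphatase that restrains JAK1, was at 0.41 ± 0.16 (adjusted p = 0.602). The summed interstitial macrophage markers, carried by C1qa, C1qb and C1qc with Cx3cr1 opposite, were higher in the same libraries, and their part was not tested.

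A further 64 interferon-induced genes outside the set were tested, of which 20 were positive (31.2%, against 48.2% of all genes). Their median log2 fold change was -0.14, with 0 calls. The C1q libraries were above the saline range for 2 of the 64, where the share over all genes was 8.12%. They were below it for 5, where that share was 5.96%. The smallest p belonged to Ifi205, a nucleic acid-binding protein gene of the Ifi200 family. It stood at 6.11, 8.10 and 6.72 CPM in saline and 14.1, 15.9 and 18.5 CPM in C1q. Each C1q library was well above the saline range, and the log2 fold change of 1.21 ± 0.26 did not pass (adjusted p = 0.281). Mndal of the same list, given further below, was lower, at -0.82 ± 0.21. For these 64 genes saline replicate 1 was the highest library for 21 (32.8%), again more often than the 10.0% of all genes.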

How the data were processed

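Cells were released from lungs by Liberase and DNase digestion and a Percoll gradient, and poly(A) RNA of the lysate was captured on oligo-dT beads, per the labels' protocols. The values deposited by the authors are raw counts per gene symbol. Per the submitters' processing notes, the tools were cutadapt 2.1.0 with Bowtie2 2.4.2, and the build was GRCm38. Not given in the sources used here were the counting step, the annotation, strand handling and any molecular identifiers, so intervals cover spread between libraries and not duplicate reads.

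Groups came from the treatment label, and replicates were numbered 1 to 3 in order of deposition. All 15 pairs of libraries differed beyond counting noise (chi-square per degree of freedom 5.19 to 16.4). After filterByExpr and TMM scaling, each gene was tested two-sided by the quasi-likelihood functions of edgeR 4.0.16 in R 4.3.3, with Benjamini-Hochberg adjustment over all 13473 genes and a threshold of 0.05. The common biological coefficient of variation was 19.5%. Standard errors come from the log2 fold change and F statistic, and 95% intervals from the quasi-likelihood t distribution, unadjusted. The script was tested on simulated data. Alternatives were other scalings and filters, DESeq2 1.42.0, limma-voom (limma 3.58.1), robust edgeR, leaving out each library, and summing near-identical copies (Ifit3 with Ifit3b, Oas1a with Oas1g).

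The members and all lists were chosen with earlier results of these data known, so no p was computed over a list. Single-library values were printed for the 5 members with the smallest p in each direction, the 3 with most counts and the first of each role group. Of the other pathway genes, the text names the one with the smallest p in each list (1 list's gene is not reported here), and Ifng, Irf1 and the 4 receptor genes Ifnar1, Ifnar2, Ifngr1 and Ifngr2. Gene positions come from GENCODE M21, matched by symbol for 43 of 43 members, and promoters from RefSeq.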

Additional observations from a re-analysis of the deposited data

How the results depend on the processing

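No paired analysis was possible because the replicate numbers are only the order of deposition and link no libraries. The number of members called lower was 0 in every alternative run, and the number called higher was 0 in all but 1. With no filter on low counts Cxcl10 passed (log2 fold change 0.90, 1 member called), a setting in which 373 of 26890 genes passed in all. In that setting 23 of 42 members were positive (54.8%, against 42.6% of all genes). There 1 member lay below the saline range (2.38%, against 5.09% of all genes). DESeq2 called 32 genes over the whole table. Leaving out 1 library at a time gave 0 to 10 calls over all genes: 0 with saline replicate 1 omitted, 10 with saline replicate 3, 1 with C1q replicate 1 and 2 with C1q replicate 2. It gave 14 to 27 of 39 to 41 members positive, 2 to 11 above and 3 to 5 below the saline range. Over these fits 47.1% to 50.7% of all genes were positive, 12.3% to 14.0% above and 9.98% to 13.6% below. Omitting C1q replicate 3 gave 5 of 41 above (12.2%, against 13.3% of all genes). Omitting C1q replicate 2 gave 5 of 39 below (12.8%, against 10.9% of all genes). Members above the saline range numbered 1 under upper-quartile scaling, under unscaled library size and under the stricter filter. The shares over all genes in these settings were 7.85%, 5.86% and 7.84%. C1q replicate 2 was the highest library for 2 members by unscaled library size, where TMM gave 4. The sign turned for some members near 0. Isg15 stood at -0.035 by unscaled library size, -0.0057 under the stricter filter and -0.14 to 0.24 over the omissions of 1 library. Ifih1 stood at -0.020 by unscaled library size and -0.13 to 0.17 over the omissions. Over the same omissions Ifit1 ran from -0.26 to 0.13, Gbp2 from -0.32 to 0.25 and Stat2 from -0.37 to 0.050. The cause was not tested. With a minimum of 60 summed counts 38 members were kept, and with the 250 upstream bases alone 48.5% of promoters held an ISRE core. Depth limits Oas2, Oas3, Mx1, Cxcl9 and Oasl1, whose levels were near that of a few counts.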

Other observations

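Neighbouring genes of the Ifi200 family, DNA-binding interferon-induced proteins encoded side by side on chromosome 1, differed in direction. They were singled out after their values were seen, and 11 of 17 family symbols were tested. Ifi205 had a log2 fold change of 1.21 ± 0.26, with every C1q library above the saline range. Mndal was at -0.82 ± 0.21, from 32.1, 42.1 and 40.7 CPM in saline to 26.8, 17.6 and 19.9 CPM in C1q, with every C1q library below that range. Ifi213 (-0.67 ± 0.23) and Ifi208 (-0.57 ± 0.22) were also below the saline range in every C1q library. Over all genes 8.12% were above and 5.96% below that range. The family was picked for its values, so nothing is read from these counts about it as a set. By edgeR's quasi-likelihood test the adjusted p was 0.281 for Ifi205, 0.405 for Mndal, 0.561 for Ifi213 and 0.598 for Ifi208.

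Summed over the 11 genes, the family stood at 218, 192 and 220 CPM in saline and 179, 162 and 179 CPM in C1q. The sum follows the more abundant genes. A positive log2 fold change was seen in 5 of 11, where the share over all genes was 48.2%. They were Ifi205 together with Ifi204 (0.53 ± 0.35), Ifi211 (0.38 ± 0.34), Ifi207 (0.18 ± 0.24) and Ifi209 (0.09 ± 0.28). Their groups overlapped for all but Ifi205. Ifi205 lies from 174011998 to 174031810 and Mndal from 173849126 to 173942491 on GRCm38, and Mndal overlaps Ifi203, which spans 173920407 to 173942672 and was at -0.41 ± 0.19. These genes are close copies of each other, and how the counting split reads between them was not tested.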
